A study of Mus musculus with 12 samples.

Results

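miR-21a is a mouse microRNA whose precursor hairpin yields a mature strand from each side, miR-21a-5p and miR-21a-3p. Both were found by their exact names among the 576 entries of the array, so 2 of 576 entries are described, and both were among the 118 miRNAs bright enough to be tested. The rule that picks them out uses their names and no measured value.

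A microRNA guides an Argonaute protein to messenger RNAs that pair with its seed, the stretch near its 5′ end, and lowers their stability or translation. Of the miR-21 duplex, the 5p strand is mostly the one kept as the guide, and the 3p strand is mostly discarded. miR-21 is known as an abundant oncogenic microRNA of many carcinomas, lung included. Its targets include the tumour suppressor Pdcd4, and its gene is a known target of STAT3 and AP-1.

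The 2 mature strands are shown because every comparison rests on probes for them. The sequences come from the RefSeq table of build GRCm38.p6, 5′ to 3′, and capitals mark the seed, bases 2 to 8.

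mmu-miR-21a-5p: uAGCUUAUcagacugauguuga

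mmu-miR-21a-3p: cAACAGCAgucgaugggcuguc

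The seeds differ, so the 2 arms pair with different targets. Both strands are 22 bases long, with a GC content of 36.4% in the 5p arm and 59.1% in the 3p arm. In the hairpin that follows, capitals mark the mature arms at positions 18 to 39 and 56 to 77, with 16 bases between them.

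Mir21a hairpin: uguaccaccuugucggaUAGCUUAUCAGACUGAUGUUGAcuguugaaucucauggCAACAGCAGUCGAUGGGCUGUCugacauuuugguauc

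The hairpin lies at chr11:86584067-86584158 (GRCm38.p6, minus strand) and overlaps the protein-coding gene Vmp1, which encodes a vacuole membrane protein of autophagy. Among 1679 mature mouse entries, mmu-miR-21c shared the 5p seed, and no other entry shared the 3p seed. The array has no probe named mmu-miR-21c. The search covers that sequence table only. It did not return mmu-miR-590-5p, which was looked up separately and has 3 probes on the array, detected on 0 arrays. The sequence of mmu-miR-21c follows for comparison, again with the seed in capitals.

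mmu-miR-21c: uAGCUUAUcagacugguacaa

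The study asked how the microRNAs of LLC1, a Lewis lung carcinoma line of the mouse grown in culture, respond to ionizing radiation given at once or in fractions. There were 4 groups of 3 biological replicates: an untreated control, 2 Gy at once, 10 Gy at once, and 2 Gy repeated in 5 fractions (5x2 Gy), which sums to 10 Gy. RNA enriched in small RNAs was taken 4 h after irradiation, and 100 ng was hybridised to an Agilent 1-colour array per sample. No genotype, transgene or drug distinguishes the groups, and all are 1 cell line in culture.

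The arrays differed in brightness, the 75th percentile of signal over the 78 probes detected on all of them, from 110.5 to 1102. Between 48 and 137 miRNAs were detected per array. The 3 arrays of 5x2 Gy were the 3 brightest, and control replicate 2 was the dimmest. Those 3 arrays and 10 Gy replicate 3 were on slide 2, and the other 8 arrays were on slide 1, as read from the array barcodes in the file headers. Of the cell type markers, 0 of 5 members of the epithelial miR-200 family were detected on any array. Of 7 markers of fibroblasts and endothelium, miR-199a-3p, miR-199a-5p and miR-214-3p were detected on all 12 arrays, miR-143-3p on 7, miR-126a-3p on 3, and miR-145a-5p and miR-126a-5p on 0. Of the blood cell markers, miR-142a-3p was detected on 12 arrays and miR-142a-5p on 6, while miR-223-3p, miR-451a, miR-144-3p and miR-150-5p were detected on 0. Labelled as carcinoma cells, the line thus lacked detectable signal of the miR-200 family on these arrays.

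The 5p arm was measured throughout. Both of its probes, with 10 spots each, were detected on all 12 arrays. Probe signals ran from 702 to 8717 and no spot was saturated. The 2 probes differed from each other by 0.67 to 0.81 on the log2 scale on every array, 0.75 ± 0.057 (SD, n = 12), so they tracked each other closely. Spots of a probe varied by a coefficient of variation of 1.94 to 13.7%.

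The 3p arm was dim. Of its 4 probes, with 5 spots each, A_54_P3444 and A_54_P3445 were detected on 0 arrays, and A_54_P3446 and A_54_P3447 on 6 arrays each. The arm's level is the mean of the latter 2 probes. Where they were detected, their signals lay between 30.3 and 67.3, and those 6 arrays were the 6 brightest. Detection of the 3p arm therefore followed the brightness of the array: 1 of 3 control arrays, 1 of 3 at 2 Gy, 1 of 3 at 10 Gy and 3 of 3 at 5x2 Gy. The 3p arm thus entered the tests through the 5x2 Gy group alone. The scanner software's own call per miRNA marked the 3p arm as detected on these 6 arrays and on control replicate 1. Because fewer cells and less RNA per cell cannot be told apart in bulk RNA, every level below is relative to the other miRNAs of the same array.

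Each level is the log2 of a miRNA's signal over its own array's 75th percentile. In control cells, miR-21a-5p stood at 2.23, 3.00 and 2.29 on replicates 1 to 3, a mean of 2.51 ± 0.43 (SD, n = 3). Replicate 2, the dimmest array, was the high one. At 2 Gy the 5p levels were 3.00, 2.35 and 2.82, a mean of 2.72 ± 0.34 (SD, n = 3), with replicate 2 lowest. At 10 Gy they were 2.88, 2.98 and 2.39, a mean of 2.75 ± 0.32 (SD, n = 3), with replicate 3 lowest. At 5x2 Gy they were 2.27, 2.60 and 2.48, a mean of 2.45 ± 0.17 (SD, n = 3). In order of their means the groups ran 10 Gy, 2 Gy, control and 5x2 Gy. Each neighbour in that order overlapped the next, and so did every pair of groups compared.

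**Figure D1:**
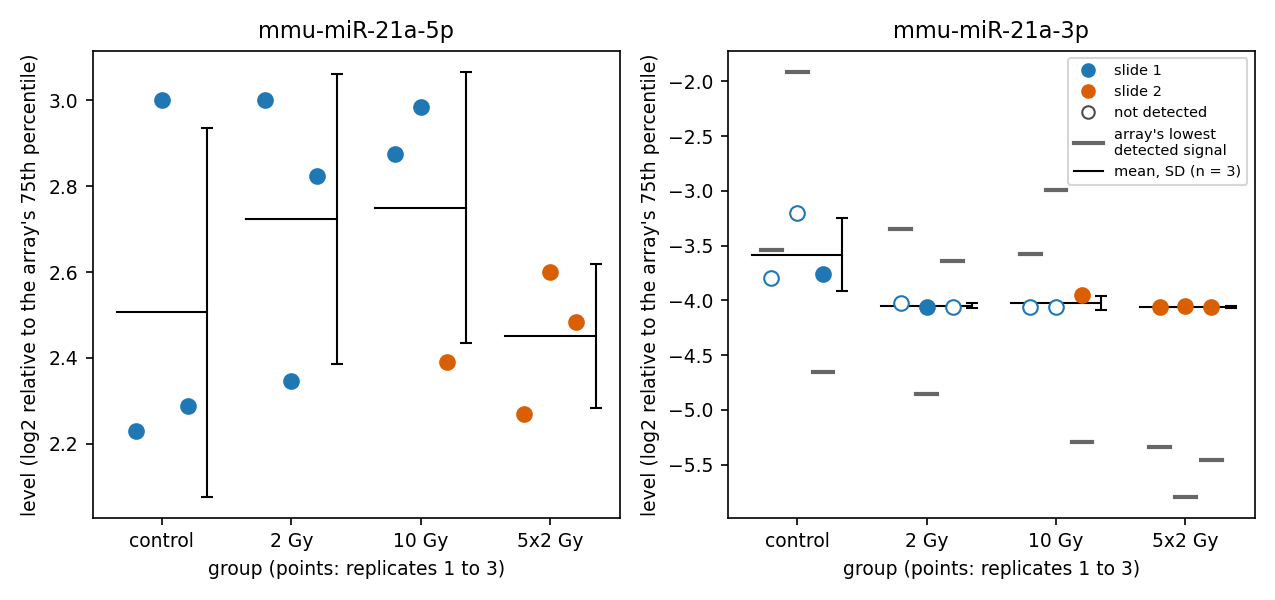
Level of each miR-21a arm (log2 relative to the 75th percentile of the array) in the 4 groups, 1 point per array in replicate order, coloured by slide and open where the arm was not detected; thin lines give the mean and SD (n = 3), and short grey bars in the 3p panel the lowest detected signal of that array. The 5p levels overlap between all groups, from 2.23 to 3.00, and the 3p levels lie at or near the floor of -4.06 outside the control group.

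The question of each comparison with control was whether miR-21a differed 4 h after irradiation. For 5x2 Gy, given in 5 fractions, the time since the first fraction is not given here. After 2 Gy, the 5p arm was 0.22 higher than in control on the log2 scale (SE 0.26, 95% interval -0.37 to 0.81, limma adjusted p = 0.860), a fold of 1.16 with an interval of 0.771 to 1.75. After 10 Gy it was 0.24 higher (SE 0.26, interval -0.35 to 0.84, limma adjusted p = 0.657), a fold of 1.18 with an interval of 0.785 to 1.79. After 5x2 Gy the difference was -0.06 (SE 0.26, interval -0.65 to 0.54, limma adjusted p = 1). None of these passed the threshold of an adjusted p of 0.05, and the intervals include both a fall and a rise in each case. At this spread, a rise of up to 1.75-fold at 2 Gy or 1.79-fold at 10 Gy lies within the intervals.

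These counts stand against the background of all 118 miRNAs tested with limma. At 2 Gy, 0 of 118 passed (0%), with 11 at an unadjusted p under 0.05. At 10 Gy, 1 of 118 passed (0.847%), with 24 at an unadjusted p under 0.05. At 5x2 Gy, 15 of 118 passed (12.7%), all higher, with 36 at an unadjusted p under 0.05. The filter also admits miRNAs detected on all arrays of 5x2 Gy alone, the 3 brightest. With detection on all 12 arrays asked, 6 passed in limma at 5x2 Gy, all higher. The counts moved with single arrays: without control replicate 2 they were 3 at 2 Gy and 7 at 10 Gy. At 10 Gy the count was 0 without control replicate 1 or without any 1 of the arrays of 10 Gy or 5x2 Gy. At 5x2 Gy they were 7 to 9 without 10 Gy replicate 2 or without any 1 of the 5x2 Gy arrays. With all arrays, neither arm of miR-21a was among those that passed in any of the 3 comparisons, which share their control arrays.

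The comparison of schedules set the same total dose given in 5 fractions against a single exposure. Between 5x2 Gy and 10 Gy, the 5p arm differed by -0.30 (SE 0.26, interval -0.89 to 0.29, limma adjusted p = 0.656), a fold of 0.813 with an interval of 0.539 to 1.23. The 3p arm differed by -0.03 (SE 0.14, interval -0.34 to 0.28, limma adjusted p = 1). Both arms overlapped between the 2 groups, and without 10 Gy replicate 3 the 3p difference was 0.0049. Of 118 miRNAs, 3 passed in this comparison (2.54%), and neither arm was among them. The schedules can differ also in the time since the first exposure, which is not given here for 5x2 Gy. They differ in slide too, with 1 array of 10 Gy on slide 2 beside all of 5x2 Gy. On slide 2 alone, the 5p difference was 0.06 with a limma adjusted p of 1, with its sign turned, and it rests there on 1 array of 10 Gy.

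The slides bear on the other comparisons too. Within slide 1 the 5p arm was 0.22 higher at 2 Gy (limma adjusted p = 0.908) and 0.42 higher at 10 Gy (limma adjusted p = 0.513), the latter without replicate 3. Control and 5x2 Gy share no slide. With slide as a block, the 5p difference between them was 0.48 (limma adjusted p = 0.689), the opposite sign, through the single 10 Gy array on slide 2. Leaving out control replicate 2 also turned that difference, to 0.19, and leaving out 5x2 Gy replicate 1 turned it to 0.04.

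As a dose response over control, 2 Gy and 10 Gy, the 5p level had a slope of 0.018 per Gy on the log2 scale (SE 0.026, interval -0.042 to 0.079, limma adjusted p = 0.800). The 3p slope was -0.031 per Gy (SE 0.020, interval -0.077 to 0.015, limma adjusted p = 0.704). Neither slope passed, nor did any of the 118 (0%), with 7 at an unadjusted p under 0.05 in limma. The 5p means at 2 Gy and 10 Gy, 2.72 and 2.75, differed by far less than the SD within either group.

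The 3p arm was read with a floor at log2 -4.06, the median over arrays of the lowest detected signal, below which values were set to the floor. In control cells its levels were -3.80, -3.20 and -3.75, a mean of -3.58 ± 0.33 (SD, n = 3). Only replicate 3 of these was a detected signal. Replicate 2, the highest value, lay below the lowest signal detected on its own array, at -1.91. The mean level of replicate 1 lay below its array's limit of -3.54, with probe A_54_P3446 at the floor. Its brighter probe, A_54_P3447, read -3.53, just above that limit, and was not detected. At 2 Gy the 3p levels were -4.02, -4.06 and -4.06, at 10 Gy -4.06, -4.06 and -3.95, and at 5x2 Gy -4.06, -4.05 and -4.06. In each irradiated group 2 of 3 arrays were at the floor.

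All irradiated arrays thus read below all control arrays for the 3p arm. Other miRNAs of the 118 tested were separated from control as well. At 2 Gy these were miR-107-3p, miR-125a-5p, miR-26b-5p, miR-322-5p, miR-34b-5p, miR-350-3p and miR-92a-3p. At 10 Gy they included miR-107-3p, miR-34b-5p and miR-92a-3p. The 3p difference was -0.47 at 2 Gy (SE 0.14, interval -0.77 to -0.16, limma adjusted p = 0.243) and -0.44 at 10 Gy (SE 0.14, interval -0.75 to -0.13, limma adjusted p = 0.201). At 5x2 Gy it was -0.47 (SE 0.14, interval -0.78 to -0.16, limma adjusted p = 0.0515). None passed. These SEs pool a control SD of 0.33 with irradiated SDs of 0.025, 0.066 and 0.0085, which the floor holds low. The SEs, intervals and p-values of 3p therefore do not measure its spread in full. The 5x2 Gy difference turned to 0.42 with the percentile over all probes, 0.31 with no scaling and 0.49 with the authors' deposited log2 values. All 3 comparisons with control passed with quantile normalization (-0.28, -0.24 and -0.29) and with the brightest probe (-0.65, -0.61 and -0.67). Values at the floor carry no order, in control as in irradiated cells, and probe A_54_P3446 was at it on control replicates 1 and 3.

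The 3p values depended on control replicate 2. Without it the differences shrank to -0.27, -0.25 and -0.28 at 2 Gy, 10 Gy and 5x2 Gy, and each then passed, with limma adjusted p-values of 0.0046, 0.0083 and 0.0018. These p-values rest on a spread that the floor sets, since the SD of the 3p level in the irradiated groups was 0.025, 0.066 and 0.0085 with 2 of 3 arrays at the floor in each, so they are given as values and nothing is read from them. At 5x2 Gy the arm likewise passed without control replicate 1 (-0.58, limma adjusted p = 0.0413) and without control replicate 3 (-0.56, limma adjusted p = 0.0412). Within slide 1 the differences were -0.47 at 2 Gy (limma adjusted p = 0.813) and -0.48 at 10 Gy (limma adjusted p = 0.358). Averaged over the 2 probes used, the signals behind these values were small, between 9.22 and 54.9 over the 12 arrays, with 23.9 for control replicate 1.

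Beside the 3p arm, another group of entries also read higher in control. The 6 tested entries listed as GC-rich or as likely fragments of repeats, tRNA or rRNA had a summed level, relative to the percentile, of 8.75 to 15.2 on the control arrays. On the arrays of 2 Gy it was 6.39 to 8.11, on those of 10 Gy 5.55 to 6.57, and on those of 5x2 Gy 6.56 to 7.71. Of these 6, 0 passed limma in any comparison, and their median differences from control were -0.75, -0.87 and -0.61, against medians near 0 over all 118. The part of this group in the 3p result was not tested.

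On the 6 arrays where the 3p arm was detected, its level without a floor can be read directly. It was -3.77 on control replicate 3, -4.42 on 2 Gy replicate 2 and -4.08 on 10 Gy replicate 3. On the 5x2 Gy arrays it was -4.91, -4.36 and -4.57. The control array was the highest of the 6 and also the dimmest of them, so group and brightness cannot be told apart here. With 1 array in 3 of the groups, these values carry no test.

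The arm difference within an array is 5p minus 3p on the log2 scale. It cancels that array's scaling only where 5p and both 3p probes used lie above the floor. Control replicate 2, where 3p was not detected, was the only such array, since probe A_54_P3446 was at the floor on all others. On the 6 arrays with 3p at the floor, the arm difference is the scaled 5p level plus a constant, so it moves with the scaling there. At 5x2 Gy its change from control was 0.42 as reported, 1.16 with the percentile over all probes and 1.46 with no scaling. It is no ratio of abundances, since 2 probes of different sequence have no common scale, and only its change between groups is read. On the control arrays it was 6.03, 6.20 and 6.04, a mean of 6.09 ± 0.096 (SD, n = 3). At 2 Gy it was 7.02, 6.41 and 6.89, a mean of 6.77 ± 0.32 (SD, n = 3), and at 10 Gy 6.94, 7.05 and 6.34, a mean of 6.78 ± 0.38 (SD, n = 3). At 5x2 Gy it was 6.33, 6.65 and 6.55, a mean of 6.51 ± 0.16 (SD, n = 3). Every irradiated array lay above every control array. Other hairpins were separated from control too, as given below with the permutation test.

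**Figure D2:**
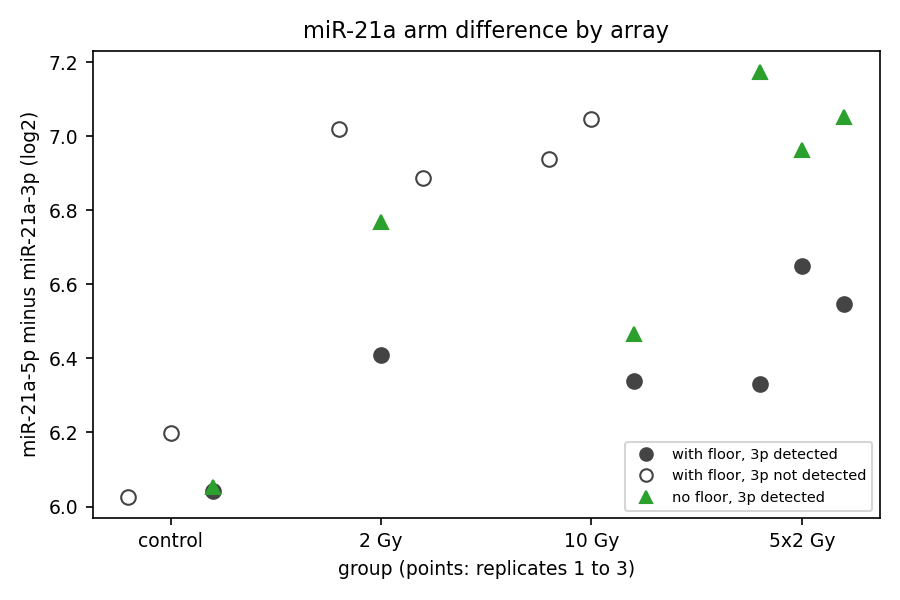
Difference of the miR-21a arms (5p minus 3p, log2) on each array, by group; circles use the floor and are open where 3p was not detected, and triangles give the value without a floor on the 6 arrays with both arms detected. The control arrays lie between 6.03 and 6.20 and all irradiated arrays above them, and the highest circles are arrays on which 3p was not detected.

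Tested with limma over the 9 hairpins with both arms tested, the arm difference of miR-21a was 0.68 higher at 2 Gy than in control (SE 0.20, interval 0.24 to 1.12, adjusted p = 0.0254). At 10 Gy it was 0.69 higher (SE 0.20, interval 0.24 to 1.13, limma adjusted p = 0.0247). Both passed. At 5x2 Gy it was 0.42 higher (SE 0.20, interval -0.02 to 0.86, limma adjusted p = 0.110), and between 5x2 Gy and 10 Gy it was -0.27 (SE 0.20, interval -0.71 to 0.18, limma adjusted p = 0.384). The two-sided exact permutation test gave p = 0.1 for each comparison with control, the smallest that 3 against 3 arrays allows, and p = 0.3 between the schedules. Of the 9 hairpins, 2 passed at 2 Gy (22.2%), 4 at 10 Gy (44.4%) and 3 at 5x2 Gy (33.3%). Between the schedules 0 passed (0%) in limma, with 3 at an unadjusted p under 0.05. A call was thus common among these few hairpins, and 7 of the 9 had an arm at the floor on at least 1 array.

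The values of the arm difference given above depend on the floor, because 3p was at it on 6 of 12 arrays. Normexp, another background correction, was used without a floor. It gave 0.74 at 2 Gy (limma adjusted p = 0.0492), 0.79 at 10 Gy (limma adjusted p = 0.0339) and 1.45 at 5x2 Gy (limma adjusted p = 0.00022). In limma the arm difference passed under 16 of 29 alternatives at 2 Gy, 17 of 29 at 10 Gy and 8 of 28 at 5x2 Gy. Of the 2 probes of 3p used, A_54_P3446 was at the floor on all arrays but control replicate 2. The processing plan had described the floor as the highest of the arrays' lowest detected signals, at log2 -1.91. The lower floor used here was adopted after that one was seen to put 3p at the floor on all 12 arrays. With the higher floor, the arm difference equals the change of 5p alone, 0.22 at 2 Gy (limma adjusted p = 0.604), 0.24 at 10 Gy (limma adjusted p = 0.557) and -0.06 at 5x2 Gy (limma adjusted p = 0.941), and none passed. With a floor 4 times lower than the one used, the differences were 0.99, 1.14 and 0.93, with limma adjusted p-values of 0.121, 0.0548 and 0.161, and again none passed.

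The calls were lost also when single arrays were left out. At 2 Gy, the arm difference did not pass without control replicate 1 (0.65, limma adjusted p = 0.0965), control replicate 3 (0.66, 0.0774), 2 Gy replicate 1 (0.56, 0.128) or 2 Gy replicate 3 (0.63, 0.102). At 10 Gy it did not pass without control replicate 3 (0.66, limma adjusted p = 0.0758), 10 Gy replicate 1 (0.60, 0.111) or 10 Gy replicate 2 (0.55, 0.131). At 5x2 Gy it passed without 10 Gy replicate 3, with the same difference of 0.42 and a limma adjusted p of 0.0466. Within slide 1 it was 0.68 at 2 Gy (limma adjusted p = 0.0375) and 0.90 at 10 Gy (limma adjusted p = 0.0069), and both passed.

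Without a floor, on the 6 arrays with both arms detected, the arm difference was 6.05 on control replicate 3, 6.77 on 2 Gy replicate 2 and 6.47 on 10 Gy replicate 3. On the 5x2 Gy arrays it was 7.17, 6.96 and 7.05. The order of the groups by these values differs from that with the floor, since the 5x2 Gy arrays stand highest here. The control array is the lowest of the 6 in both readings, and with 1 control array there is no test. It is also the dimmest of the 6, with a brightness of 703, and the 5x2 Gy arrays are the brightest. Group and brightness cannot be told apart here.

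**Figure D3:**
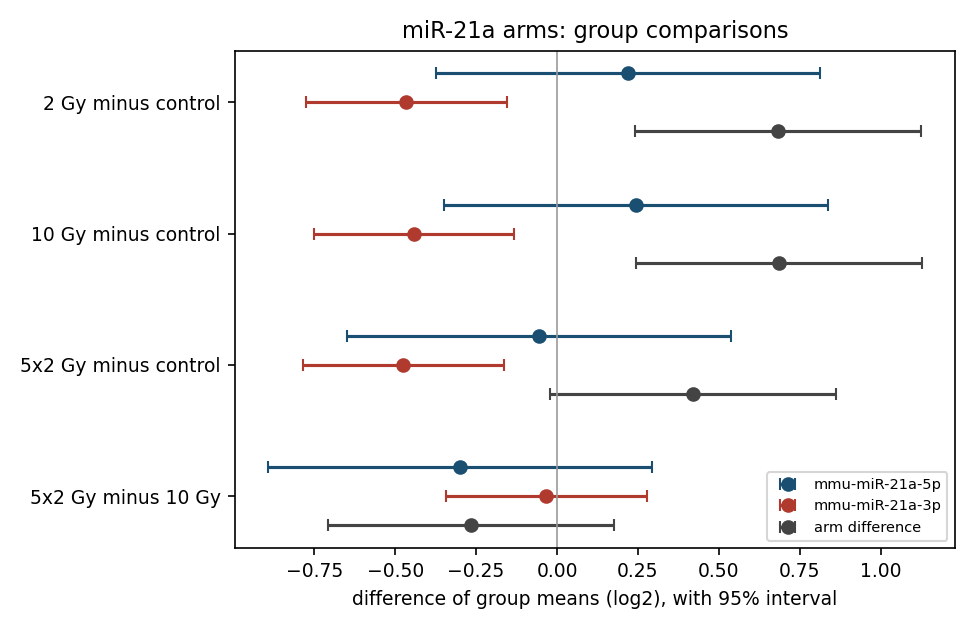
Differences between group means (log2, x axis) with 95% intervals from limma for miR-21a-5p, miR-21a-3p and the arm difference, in 4 comparisons (n = 3 arrays a group). The 5p intervals all include 0, and the arm difference lies above 0 at 2 Gy and 10 Gy with the floor used. The 3p intervals lie below 0 against control with no adjusted p under the threshold, and their width is set in part by the floor.

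The 5p level was lower on brighter arrays. Brightness is also the value that each level is divided by, so the 2 are tied by construction. The permutation p-values below do not allow for that tie, and nothing is read from them. Over 12 arrays, its correlation with log2 brightness was r = -0.71 (permutation p = 0.0109) and rho = -0.62 (permutation p = 0.0381). With control replicate 2 and 5x2 Gy replicate 2 left out, whose brightness lay farthest from the median, r stayed at -0.71. Within the 8 arrays of slide 1, r was -0.68 (exact permutation p = 0.0495) and rho was -0.76 (exact permutation p = 0.0368). Slide 2 holds 4 arrays, too few for a value. The median r with brightness over the 71 miRNAs above the floor was 0.26, and 6 of them had a lower r than the 5p arm.

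**Figure D4:**
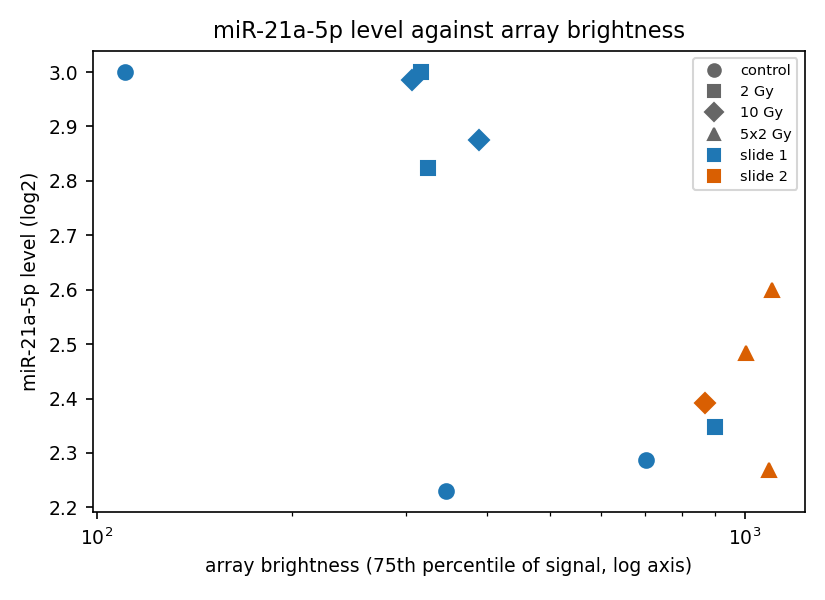
Level of miR-21a-5p (log2) against the brightness of the array (75th percentile of signal, log axis), 1 point per array, with the group as the shape and the slide as the colour. The level falls from 3.00 on the dimmest array to between 2.27 and 2.60 on the 5x2 Gy arrays, with control replicate 1 low for its brightness at 2.23.

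Brightness also differed between the groups, and here the 5x2 Gy arrays, all bright, cannot be fully told apart from bright arrays. With log2 brightness as a covariate, the 5p arm was 0.41 higher than control at 2 Gy (limma adjusted p = 0.0685), 0.46 higher at 10 Gy (limma adjusted p = 0.0405) and 0.55 higher at 5x2 Gy (limma adjusted p = 0.0470). The last 2 then passed, and at 5x2 Gy the sign had turned. Between the schedules the 5p difference became 0.09 (limma adjusted p = 0.835). In that fit 26 of 118 miRNAs passed at 10 Gy and 28 at 5x2 Gy, so calls of the 5p arm came with many others. Over all settings tried, the 5p difference from control ran from 0.08 to 0.81 at 2 Gy and from 0.11 to 0.89 at 10 Gy, positive in each. At 5x2 Gy it ran from -0.19 to 1.77.

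The scaling set much of that range. With the percentile taken over all probes, the median of the 71 miRNAs above the floor moved by 0.17 at 2 Gy, 0.49 at 10 Gy and 1.64 at 5x2 Gy, and with no scaling by 0.51, 0.57 and 1.75. The 5p differences of 1.58 and 1.77 at 5x2 Gy under those scalings lie close to that common shift. Quantile normalization moved the median by 0.08, 0.10 and -0.03, and the 5p difference at 5x2 Gy was then 0.17 (limma adjusted p = 0.652).

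**Figure D5:**
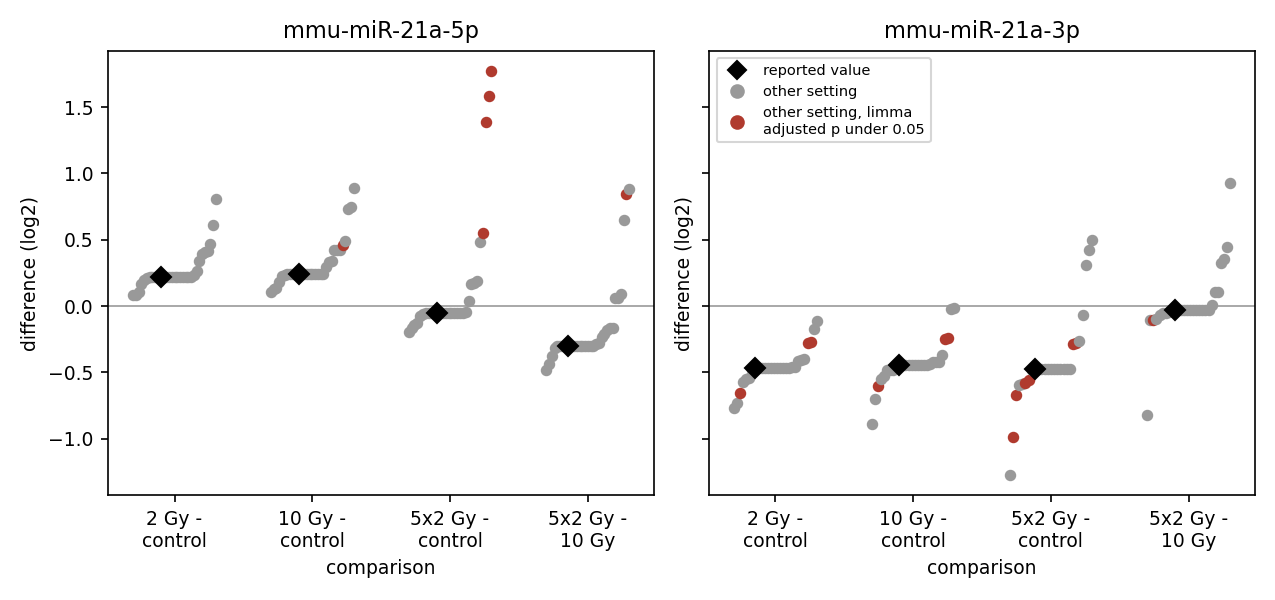
Difference of each arm (log2) in 4 comparisons under every setting tried, 1 point per setting, with the reported value as a diamond and settings with a limma adjusted p under 0.05 in red. The 5p points stay above 0 at 2 Gy and 10 Gy and lie on both sides of 0 at 5x2 Gy, where the highest reach 1.77 under no scaling.

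The miRNAs whose levels ran most like miR-21a-5p over the 12 arrays, among 70 others above the floor, were miR-15b-5p (r = 0.96), miR-301a-3p (r = 0.95), miR-365-3p (r = 0.93), miR-221-3p (r = 0.89) and miR-23a-3p (r = 0.87). The median r of the 70 was -0.16. Within slide 1 the 5 had r from 0.94 to 0.97. They share the arrays, the scaling and the relation to brightness, with r to brightness from -0.74 to -0.58. Of these 5, 0 passed limma in any of the 4 comparisons, with 0.420 the lowest adjusted p.

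Other microRNAs were read from lists, each set beside all 118 tested. Of the miRNAs known as oncogenic in carcinoma, such as the miR-17 cluster, 16 of 18 listed were tested. At 5x2 Gy, 1 of the 16 rose, miR-25-3p by 0.40 (limma adjusted p = 0.0379), beside 12.7% over all 118, and 0 passed at 2 Gy, at 10 Gy or between the schedules. Their median difference was -0.12 at 2 Gy, -0.18 at 10 Gy and -0.01 at 5x2 Gy, beside 0.0004 over all tested at 5x2 Gy. Of the 10 listed miRNAs linked to inflammation, NF-kB or STAT3, 4 were tested and 0 passed limma in any comparison. Of the markers of fibroblasts and endothelium, 4 of 7 were tested, and at 5x2 Gy 2 of the 4 rose, miR-214-3p by 0.46 (limma adjusted p = 0.0407) and miR-199a-5p by 0.33 (limma adjusted p = 0.0105), beside 12.7% over all 118. In the other 3 comparisons 0 of the 4 passed limma. The 15 calls at 5x2 Gy over all miRNAs fell to 1 with slide as a block and to 2 with the highest floor. With normexp 5 passed, 0 of them higher, so none of the rises named here was then called.

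Of the 10 members of the p53-responsive list, 5 were tested, and 1 passed at 10 Gy and 2 at 5x2 Gy, beside 0.847% and 12.7% over all 118. miR-34b-5p, of a family that p53 is known to induce, rose by 0.85 at 10 Gy (limma adjusted p = 0.0220) and by 1.21 at 5x2 Gy (limma adjusted p = 0.00081). The 10 Gy call was the only one of that comparison. It was lost with slide as a block, within slide 1, with the replicate block and with no filter. The same held with no scaling, the highest floor and the deposited values. Under each of these settings 0 miRNAs passed. With normexp 1 miRNA passed and 0 passed as higher, so the miR-34b-5p call was lost there too. miR-107-3p rose by 0.20 at 5x2 Gy (limma adjusted p = 0.0062). The limits given above for calls at 5x2 Gy hold for miR-34b-5p and miR-107-3p as well. The 5p arm of miR-21a had a larger spread, with an SE of 0.26 against 0.14 for miR-34b-5p, so a change of a given size was harder to call for it.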

How the data were processed

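Linear spot intensity was read from the deposited files of the scanner. The submitters' processing notes name version 10.7.3.1 of Agilent Feature Extraction as the authors' tool. Spot flags (0 or 1) served as filters, per the file headers. A series-wide value matrix deposited by the authors is in log2, found here to equal the log2 of the signal (at least 1) plus a constant per array of -0.27 to 0.51, and served as an alternative. Control spots (953 of 12493) and outlier spots (2.04 to 4.98% per array) were left out. Signals were scaled to the 75th percentile of the array, taken over the 78 probes that every array detected. Scaled values under 0.0598, the median of the arrays' lowest detected signals, were raised to it (the floor), and log2 was taken. The processing plan had named their highest, 0.265; the median was chosen after seeing that the highest left the 3p arm flat, and follows earlier work on these data. Detection of a probe required the flag for well above background on over 0.5 of its spots. A miRNA's level averaged its probes detected on at least 3 arrays, and a miRNA was tested if detected on all 3 arrays of a group (118 of 576).

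Comparisons used limma 3.58.1 in R 4.3.3 (with the data.table package, version 1.17.8) on all 12 arrays, two-sided, with Benjamini-Hochberg adjustment over the 118 miRNAs, or over 9 hairpins for the arm difference. The prior carried 0.45 degrees of freedom beside 8 residual ones, and the test was checked on simulated data. Named besides both arms were listed miRNAs that passed (1 list is not reported here), miRNAs sharing a seed, and the 5 with the highest correlation. The members and lists were chosen with earlier results of these data known. Nothing says whether replicates shared a culture or day, so p-values measure only the spread between these samples. Their number limits the precision. The files lack a mean signal column, so normexp (offset 50) used the median signal. 0 array pairs held identical values.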

Additional observations from a re-analysis of the deposited data

How the results depend on the processing

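The 5p differences at 2 Gy kept their direction and side of the threshold under all 30 alternatives, from 0.08 to 0.81, and at 10 Gy under 29 of 30. The slope of 5p kept both under all 27. The number of arrays, and for 3p the signal over background, limit the rest. The cause of the changes below was not tested, except where the floor removes 3p. Values are log2 differences, with limma's adjusted p in brackets where the call changed.

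With brightness as a covariate, 5p was 0.46 (0.0405) at 10 Gy, 0.55 (0.0470) at 5x2 Gy and 0.091 between the schedules, 3p between the schedules was 0.10, and the arm difference at 5x2 Gy was 0.81 (6.5e-05). With the percentile over all probes, 5p was 1.58 (0.0016) at 5x2 Gy and 0.85 (0.0337) between the schedules, 3p 0.42 and 0.44, the 3p slope 0.0039, and the arm difference 0.56 (0.0866) at 2 Gy, 1.16 (0.00064) at 5x2 Gy and 0.40 between the schedules. With no scaling, 5p was 1.77 (0.0154) and 0.88, 3p 0.31 and 0.32, the 3p slope 0.0026, and the arm difference 1.46 (0.0010) at 5x2 Gy and 0.56 between the schedules. With the authors' deposited log2 values, 5p was 1.39 (0.0275) and 0.65, 3p 0.49 and 0.93, and the arm difference 1.02 (0.173) at 2 Gy and 1.18 (0.0814) at 10 Gy. With normexp, 5p at 5x2 Gy was 0.17, and the arm difference 1.45 (0.00022) there and 0.66 (0.0418) between the schedules. With quantile normalization, 5p at 5x2 Gy was 0.17, and 3p passed at -0.28 (0.0299), -0.24 (0.0277) and -0.29 (0.0085) at 2 Gy, 10 Gy and 5x2 Gy. With the brightest probe, 3p passed at -0.65 (0.0115), -0.61 (0.0198) and -0.67 (0.0033), and the arm difference at 5x2 Gy was 0.63 (0.0325).

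With slide as a block, 5p was 0.48 at 5x2 Gy and 0.060 between the schedules, and the arm difference 1.07 (0.0166) and 0.17. Within slide 2, chosen after seeing the data, 5p was 0.060, 3p -0.11 (0.0435) and the arm difference 0.17. With a floor 4 times lower, 3p at 5x2 Gy was -0.99 (0.0323), and the arm difference 0.99 (0.121) at 2 Gy and 1.14 (0.0548) at 10 Gy. With the floor doubled, the arm difference was 0.22 (0.543), 0.24 (0.556) and -0.055 at 2 Gy, 10 Gy and 5x2 Gy, and with the highest floor, the one of the processing plan, 0.22 (0.604), 0.24 (0.557) and -0.055; both floors put 3p at the floor on all arrays, so it has no value there. With outlier spots kept, also added after seeing the data, 3p between the schedules was 0.11 and the arm difference at 10 Gy 0.93 (0.0523). With the total gene signal, 3p between the schedules was 0.36 and the arm difference 0.80 (0.487), 0.72 (0.566) and -0.080. With no filter the arm difference was 0.68 (0.525) and 0.69 (0.493) at 2 Gy and 10 Gy, and with only the groups compared 0.68 (0.0817), 0.69 (0.0544) and, at 5x2 Gy, 0.42 (0.0304).

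Replicate numbers did not pair the arrays: correlations of same-numbered deviations ran from -0.88 to 0.73, 6 of 18 were over 0.1, and 1 of 12 arrays correlated best with its own number. With the replicate block, the arm difference was 0.68 (0.0538) at 2 Gy and 0.69 (0.0527) at 10 Gy, calls at 10 Gy fell to 0, and 5p was 0.22, 0.24 and -0.06.

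Leaving out each array in turn gave 5p differences of 0.08 to 0.47 at 2 Gy, 0.11 to 0.49 at 10 Gy, -0.19 to 0.19 at 5x2 Gy and -0.48 to -0.18 between the schedules. It gave 3p differences of -0.57 to -0.27, -0.55 to -0.25, -0.58 to -0.28 and -0.052 to 0.0049, and arm differences of 0.56 to 0.86, 0.55 to 0.90, 0.35 to 0.51 and -0.48 to -0.13. Calls then ran from 0 to 3 at 2 Gy, 0 to 7 at 10 Gy, 7 to 16 at 5x2 Gy and 1 to 3 between the schedules. Arrays of 5x2 Gy do not enter the slope, and neither 3p nor the arm difference remains when detection on all 12 arrays is asked.

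Calls over all miRNAs, where the count moved by over 1.5 times, were as follows. At 2 Gy they were 6 with brightness as a covariate, 1 with the brightest probe and 2 with quantile normalization. At 10 Gy they were 26 with brightness, 2 with the brightest probe, 2 with only the groups compared and 4 with quantile normalization. They were 0 there with the deposited log2 values, the highest floor, no filter, no scaling, slide as a block and within slide 1. At 5x2 Gy they were 102 with the percentile over all probes, 86 with no scaling, 84 with the deposited log2 values, 28 with brightness, 25 with the lower floor, 7 with the floor doubled or quantile normalization, 6 with detection on all 12 arrays or no filter, 5 with normexp, 2 with the highest floor and 1 with slide as a block. Between the schedules they were 92 with the percentile over all probes, 24 with no scaling and 9 within slide 2, 1 with the highest floor, the floor doubled, no filter, quantile normalization or slide as a block, and 0 with the deposited log2 values, detection on all 12 arrays or normexp. Of the calls at 5x2 Gy, 15 of 15 were higher as reported. All were also higher with the percentile over all probes, no scaling and the deposited values, 6 of 7 with quantile normalization and 0 of 5 with normexp.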
